A study of Mus musculus with 2 samples.

Results

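The matrix metalloproteinases Mmp2, Mmp3, Mmp9, Mmp11, Mmp13 and Mmp14 and their tissue inhibitors Timp1, Timp2, Timp3 and Timp4 were examined in cultures of mouse embryonic fibroblasts (connective tissue cells cultured from embryos) of 2 genotypes. The 10 genes, 6 proteases and 4 inhibitors, were taken by symbol, by a rule that uses no measured value, out of 18193 genes on the array. Each is read through the probe sets (groups of oligonucleotides summarised as 1 signal) that carry its symbol alone in the platform annotation, 23 of 45037 probe sets in all. There was 1 Affymetrix array of fibroblasts with wild-type Phc2 and 1 of fibroblasts homozygous for Phc2 L307R. Both cultures came from C57BL/6 embryos at embryonic day 12.5 and were used at passage 1, grown with 10% fetal calf serum on gelatin-coated dishes. Gelatin is denatured collagen and a substrate of some of these proteases. Nothing in the labels gives the number of embryos behind a culture. No array was replicated. No difference below was therefore tested and none has a p-value, since each compares 2 single cultures.

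Matrix metalloproteinases are zinc-dependent enzymes that cleave collagens and other proteins of the extracellular matrix. They are made as inactive precursors, secreted or held in the cell membrane, and are activated by removal of a propeptide. The Timp proteins are small secreted inhibitors that bind and block the active enzymes, so that the breakdown of matrix by fibroblasts depends on the balance of both groups. Phc2 belongs to a Polycomb repressive complex, which keeps developmental genes silent, and the changed residue lies in the SAM domain that lets Phc2 polymerise. The question is whether genes are expressed differently when this polymerisation is impaired.

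The medians of the arrays were close, 94.8 for wild type and 94.3 for the mutant, and the brightest probe set reached 33491 and 43746. As a check of RNA integrity, 3′ over 5′ signals of the Gapdh control probe sets gave 0.791 and 0.721 for the wild-type and Phc2 L307R arrays, and those of Actb 1.15 and 1.14. A floor was set at 94.8, the higher of both medians, and a gene was called measured when its main probe set, the one of highest mean log2 signal, exceeded the floor on 1 array or both. Each difference is given as the log2 signal of Phc2 L307R minus that of wild type, the log2 ratio. Over 11408 measured genes the median log2 ratio was 0.06. Measured probe sets of 1 gene differed from each other with a pooled SD of 0.32 over 5460 genes, which is the only error that the table holds and is technical. All 10 fibroblast markers, Col1a1 (type I collagen) among them, were measured on both arrays, and the labelled cell type was thus represented.

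Mmp13 had the largest difference among the 4 proteases that lay above the floor on both arrays. It is a collagenase, known from hypertrophic cartilage and bone, and cleaves fibrillar collagen. Its only probe set, 1417256_at, went from 302.7 in wild type to 581.1 in Phc2 L307R, a log2 ratio of 0.94 or 1.92-fold higher. The array of Phc2 L307R was thus the higher, but short of 2-fold. Of 11408 measured genes, 80 had a log2 ratio at least as high, or 0.701%. The difference exceeded the disagreement between probe sets of 1 gene, but no second probe set of Mmp13 was there to check it.

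Its neighbours gave little signal. Of the 10 genes of the cluster 9 had a probe set, and 7 of these were below the floor on both arrays. Besides Mmp13 only Mmp10, a stromelysin, was measured, at 102.2 on the wild-type array and 71.7 on the Phc2 L307R array, the latter below the floor. Mmp3, another stromelysin, which degrades proteoglycans and activates other metalloproteinases, had signals of 71.6 and 77, both below the floor, and no fold is given. Mmp12 and Mmp1b, which lie between Mmp13 and Mmp3 and are named for that place, had signals of 35.6 and 2.2 in wild type and of 19.2 and 26 in Phc2 L307R. Within the cluster, a signal above the floor on both arrays was thus found for Mmp13 alone.

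Promoters are shown for Mmp13, for its neighbour Mmp3 below the floor and, for contrast, for Timp3, the inhibitor with the largest difference. Each runs from 250 bases before to 50 bases after the annotated start, 5′ to 3′ on the strand of the gene, as given by RefSeq for GRCm38.p6. Of the 10 genes, 8 had a promoter in that table; Mmp2 and Mmp9 were not analysed here in this respect. Capitals mark a match to the AP-1 motif (TGANTCA, which reads alike on both strands), the TATA box (TATAAA, or TTTATA for the other strand) or the GC box (GGGCGG, or CCGCCC for the other strand). No match in these 3 promoters overlapped another.
Mmp13, chr9:7272264-7272563, plus strand: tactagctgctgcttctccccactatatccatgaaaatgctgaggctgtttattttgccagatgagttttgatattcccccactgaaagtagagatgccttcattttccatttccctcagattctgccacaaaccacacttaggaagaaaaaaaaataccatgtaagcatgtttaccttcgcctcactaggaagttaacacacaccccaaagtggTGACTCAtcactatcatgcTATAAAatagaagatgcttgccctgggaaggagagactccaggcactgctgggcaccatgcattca
Mmp3, chr9:7445572-7445871, plus strand: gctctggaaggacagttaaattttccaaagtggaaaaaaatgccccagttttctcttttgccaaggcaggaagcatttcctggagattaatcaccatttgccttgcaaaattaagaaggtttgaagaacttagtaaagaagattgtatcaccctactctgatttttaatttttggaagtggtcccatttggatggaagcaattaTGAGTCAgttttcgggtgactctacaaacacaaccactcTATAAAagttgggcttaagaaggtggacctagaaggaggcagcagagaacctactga
Timp3, chr10:86300162-86300461, plus strand: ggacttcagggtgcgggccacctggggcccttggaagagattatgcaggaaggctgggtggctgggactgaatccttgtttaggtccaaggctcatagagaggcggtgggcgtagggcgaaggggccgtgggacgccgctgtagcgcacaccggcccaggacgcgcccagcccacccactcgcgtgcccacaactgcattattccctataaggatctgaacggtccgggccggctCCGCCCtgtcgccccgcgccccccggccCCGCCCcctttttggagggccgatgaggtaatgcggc

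Mmp13 and Mmp3, which lie in the same cluster of metalloproteinase genes on chromosome 9, each held 1 AP-1 match and 1 TATA box. In Mmp13 the AP-1 match TGACTCA began 35 bases before the annotated start and the TATA box 16 bases before it, and in Mmp3 the match TGAGTCA began 46 bases and the TATA box 7 bases before it. AP-1 is the Fos and Jun family of transcription factors. Of 32851 promoters of the same length, 7.81% held an AP-1 match, 13.6% a TATA box and 1.54% both. None of the other 6 promoters held either. The GC box was found in 5 of the 8 promoters, those of Mmp11, Mmp14, Timp1, Timp2 and Timp3, against 35.7% of all promoters, and that of Timp4 held none of the motifs.

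CpG content is the number of CG dinucleotides over that expected from the C and G content. It split the promoters as the GC box did, but the GC box itself holds a CG, so this is not a separate observation. CpG content was 0.072 for Mmp13, 0.084 for Mmp3 and 0.10 for Timp4, below the 25th percentile of all promoters, which was 0.18. For Timp1 it was 0.38 and for Mmp14 0.43, near the median of 0.38, and for Mmp11, Timp3 and Timp2 it was 0.57, 0.71 and 0.72. Mmp3 and Timp4 lay below the floor on both arrays, whereas Mmp13 lay above it on both, and so did all 5 genes of higher CpG content. These matches describe letters in a window and are not measured binding sites.

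The gelatinases cleave denatured collagen and the collagen of basement membranes. Mmp2, the gelatinase typical of fibroblasts, went at its main probe set 1416136_at from 4469 in wild type to 5427 in Phc2 L307R, a log2 ratio of 0.28. Its second probe set, 1439364_a_at, had 3893 and 4441, a log2 ratio of 0.19. Both were higher in Phc2 L307R, by less than the SD between probe sets.

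Mmp9, the other gelatinase, is known mainly from leukocytes and osteoclasts. Its main probe set 1416298_at reached 102.5 in wild type, just above the floor, and 52.9 in Phc2 L307R, below it, so it was at least 1.08-fold lower. Its second probe set, 1448291_at, had 52.7 and 12.9, below the floor on both arrays. The size of a difference in Mmp9 was therefore not measurable here: the log2 ratio was -0.11 with the floor and -0.95 without it.

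Mmp14, a membrane-type metalloproteinase, cleaves collagen at the cell surface and activates the precursor of Mmp2. Its 3 probe sets had signals of 6653, 3828 and 756 in wild type and of 6491, 3783 and 773.9 in Phc2 L307R. The log2 ratios were -0.04, -0.02 and 0.03. All 3 lay within 0.04 of 0, so the difference was well inside the disagreement between probe sets, and the SD among these was 0.036. Mmp11, a stromelysin that is activated inside the cell by furin, had a single probe set, 1417234_at, with signals of 387 and 501.1. Its log2 ratio of 0.37 was a little above the SD between probe sets, and less than that SD above the median of all genes.

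**Figure D1:**
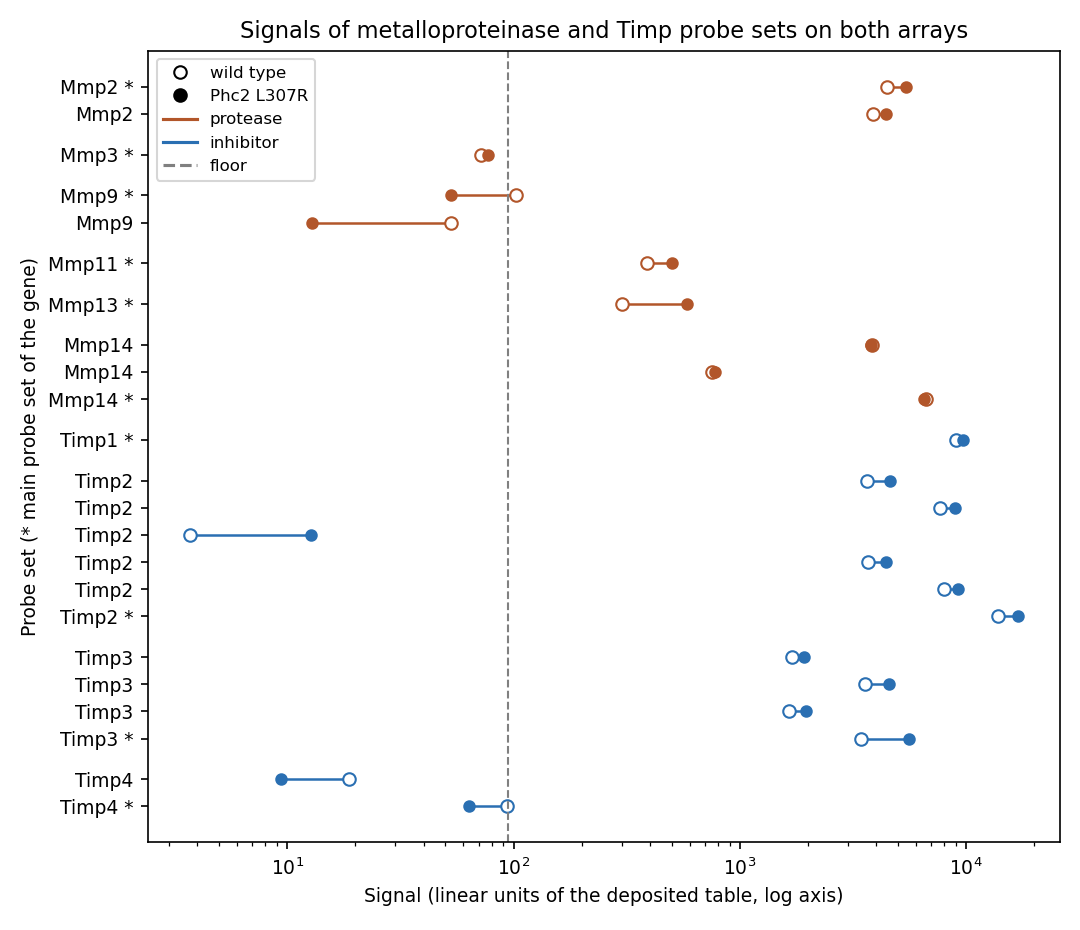
Signal of each of the 23 probe sets on the wild-type array (open circles) and the Phc2 L307R array (filled circles), on a log axis, with proteases in brown, inhibitors in blue, the main probe set of a gene starred and the floor of 94.8 as a dashed line. Mmp13 moved from 302.7 to 581.1 and the starred probe set of Timp3 from 3431 to 5569, while Mmp3 and Timp4 lay left of the floor on both arrays.

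Among the inhibitors, Timp3 differed most, but its probe sets disagreed on the size. Timp3, whose promoter above holds 2 GC boxes and neither AP-1 match nor TATA box, is bound to the matrix after secretion and blocks, besides metalloproteinases, several proteases of the ADAM and ADAMTS families. Its main probe set 1449335_at went from 3431 in wild type to 5569 in Phc2 L307R, a log2 ratio of 0.70 or 1.62-fold higher. Probe set 1419089_at had 3554 and 4558 (0.36), 1449334_at had 1654 and 1961 (0.25), and 1419088_at had 1691 and 1914 (0.18). All 4 were higher in Phc2 L307R, over a range of 0.18 to 0.70 with an SD of 0.23, although the platform annotation derives them from the same source sequence. The median of the 3 further probe sets was 0.25, and the mean of all 4 was 0.37, or below 1.5-fold.

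Timp2, which inhibits most metalloproteinases and also links the precursor of Mmp2 to Mmp14 for activation, gave the most even values of the inhibitors with several measured probe sets. Its main probe set 1460287_at went from 13797 in wild type to 17000 in Phc2 L307R, a log2 ratio of 0.30. The 4 further measured probe sets had log2 ratios of 0.34, 0.27, 0.23 and 0.20, so that all 5 were higher in Phc2 L307R with an SD of 0.056. A probe set 1437081_at, with signals of 3.7 and 12.7, lay below the floor on both arrays. The size depended on the scaling at these bright signals: quantile normalization gave 0.19 for Timp2.

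Timp1 is a secreted inhibitor that is induced in many stimulated fibroblasts and is a poor inhibitor of Mmp14. Its 1 probe set, 1460227_at, had signals of 8987 and 9697, a log2 ratio of 0.11, close to the median of all genes. Timp4, known best from heart and brain, had signals of 93.7 and 63.4 at 1450974_at and of 18.8 and 9.4 at 1423405_at, below the floor on both arrays. Neither a level nor a difference of Timp4 could be read at this sensitivity.

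**Figure D2:**
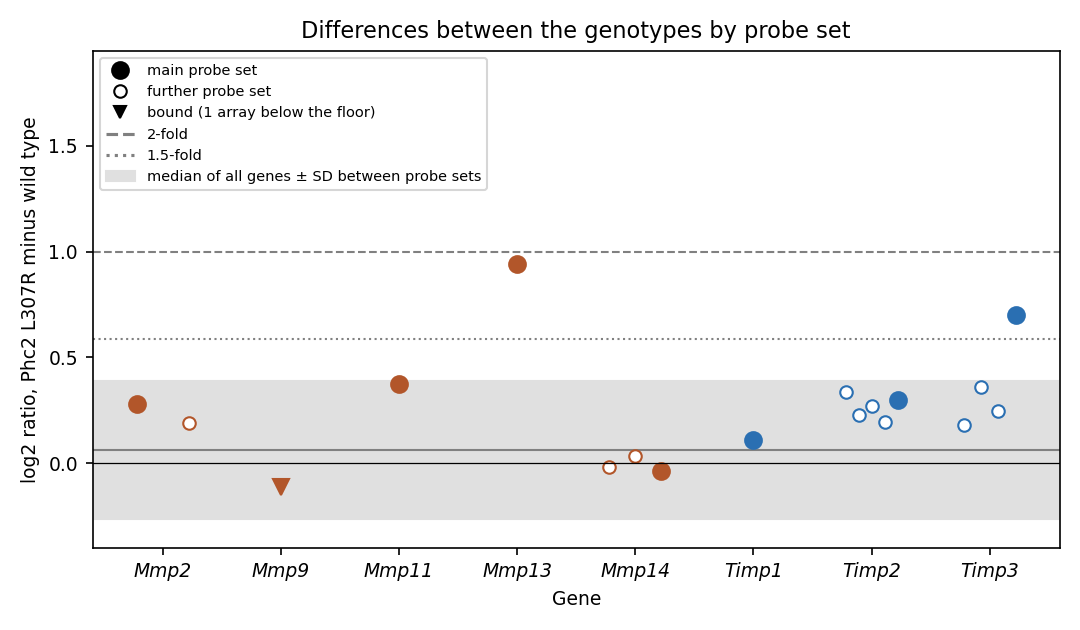
Log2 ratio (Phc2 L307R minus wild type) of each measured probe set, by gene, with large filled symbols for the main probe set, open circles for further ones, a triangle for a bound, and a grey band for the median of all genes (0.06) plus and minus the SD between probe sets (0.32). The main probe sets of Mmp13 (0.94) and Timp3 (0.70) lie above the dotted line of 1.5-fold, Mmp9 is a bound whose size is not known, and the main probe sets of the other genes lie inside the band.

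The differences of proteases and inhibitors overlapped. Of the 6 proteases 5 were measured, 3 higher and 2 lower in Phc2 L307R; their median log2 ratio was 0.28 and their range -0.11 to 0.94. Of the 4 inhibitors 3 were measured and all 3 were higher, with a median of 0.30 and a range of 0.11 to 0.70. The median of the proteases minus that of the inhibitors was -0.02, and their ranges overlapped. Its sign is not settled, since it was above 0 under 3 of 9 alternative settings and reached 0.099 with quantile normalization.

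By probe set, 10 of 10 measured probe sets of the inhibitors were higher in Phc2 L307R, against 5 of 8 of the proteases. These are not independent counts, because 9 of the 10 belong to Timp2 and Timp3. Over all measured probe sets with 1 symbol, 54.3% had a log2 ratio above 0, and over all measured genes 59.1%. None of the 8 measured genes of the family differed at least 2-fold in either direction, where 0.579% of all measured genes were at least 2-fold higher and 0.535% at least 2-fold lower. At 1.5-fold, Mmp13 and Timp3 were higher and none was lower, with 4.2% and 3.25% of all measured genes past that threshold. The median over the 8 was 0.29, against 0.06 over all measured genes.

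Within the set, log2 ratios were compared for enzymes and inhibitors that act together. Each such difference carries the disagreement between probe sets (SD 0.32) of both genes, so its own error is larger than that SD. Values of about this size or less show no inequality. A larger value was not tested either, since this SD is technical and each genotype had 1 array. The log2 ratio of Mmp2 minus that of Timp2 was -0.02. For Mmp14 minus Timp2 it was -0.34, and -0.27 with the mean over probe sets. The log2 ratio of Mmp13 was above those of the inhibitors, by 0.83 for Timp1, 0.64 for Timp2 and 0.24 for Timp3. The value for Timp3 was less than the SD, but 0.57 with the mean over probe sets. The last pair thus hinges on which probe set of Timp3 is read.

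By signal, the measured proteases ranged from 102.5 to 6653 in wild type and from 52.9 to 6491 in Phc2 L307R at their main probe sets. The inhibitors ranged from 3431 to 13797 and from 5569 to 17000. These signals are not per length and depend on the probes of each set, as the range of 756 to 6653 for Mmp14 in wild type shows, so they give no order of transcript amounts between genes. What can be read is which genes lay above the floor: Mmp2, Mmp11, Mmp13, Mmp14, Timp1, Timp2 and Timp3 on both arrays.

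**Figure D3:**
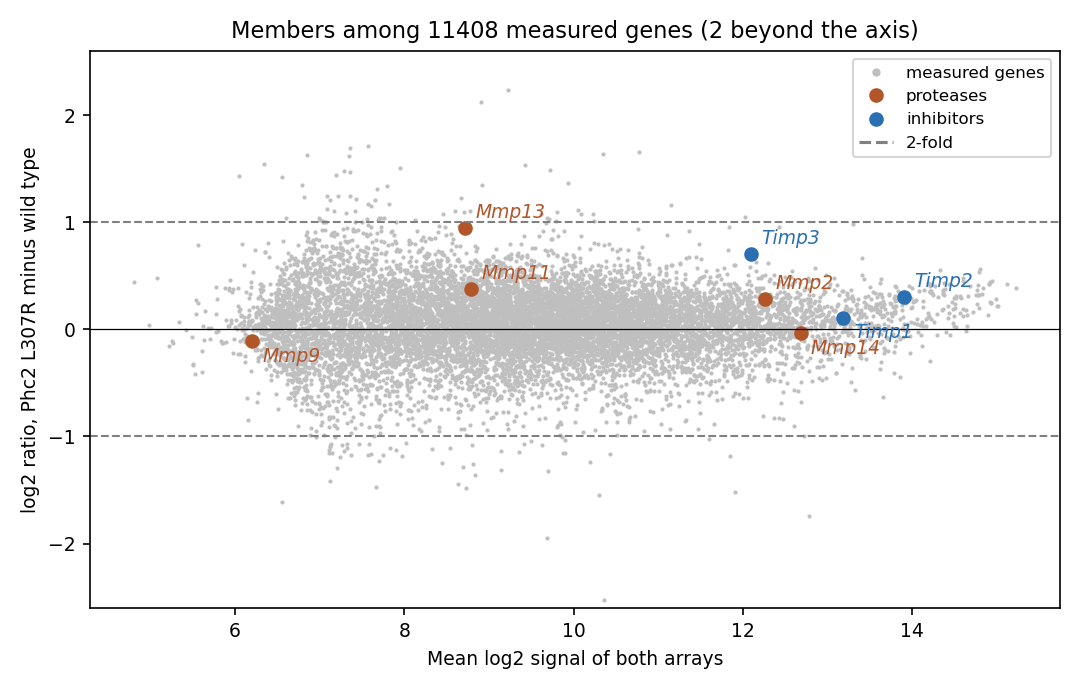
Log2 ratio against the mean log2 signal of both arrays for 11408 measured genes (grey), with the 5 measured proteases in brown, the 3 measured inhibitors in blue and 2-fold as dashed lines; 2 genes lie beyond the axis. Mmp13 (0.94) lies just under the 2-fold line and Timp3 (0.70) is the highest inhibitor.

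Other proteases of the matrix showed no difference of 2-fold. Of 17 further metalloproteinases 12 had a probe set and 4 were measured. Mmp16, a membrane-type enzyme, was at a log2 ratio of 0.33, Mmp17 at 0.30, Mmp23 at 0.28 and Mmp10 at -0.11 or lower. The 4 measured probe sets of Mmp16 ranged from -0.37 to 0.33. All 8 ADAM proteases, which shed proteins from the cell surface, were measured, with a median of 0.27. Adam15 was at 0.47, Adam19 at 0.41, Adam33 at 0.31 and Adam10 at -0.33, but the probe sets of Adam10 ranged from -0.33 to 0.74. Those of Adam15 ranged from 0.07 to 0.47 and those of Adam19 from 0.13 to 0.41. Of 18 ADAMTS proteases, secreted enzymes that cleave proteoglycans and procollagens, 11 were measured, with a median of 0.18. Of these 1 was at least 1.5-fold higher, against 4.2% of all measured genes. Adamts16 was at 0.62, with signals of 98.1 in wild type, near the floor, and 150.7 in Phc2 L307R. Adamts7 was at 0.56, Adamts4, an aggrecanase, at 0.36 and Adamts15 at -0.29 or lower. The measured probe sets of Adamts4 ranged from -0.15 to 0.36.

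Of 8 genes of the plasminogen system, whose protease plasmin can activate metalloproteinases, 3 were measured. All 3 were lower, as were 4664 of all 11408 measured genes, and so few genes set no direction for the system. Serpinb2, an inhibitor of plasminogen activators, was at -0.19 or lower, a bound, since it lay below the floor in Phc2 L307R. The urokinase receptor Plaur was at -0.17 and the tissue plasminogen activator Plat at -0.06, both less than the SD between probe sets. Neither Plau nor Plg, both chosen after their values were seen, exceeded the floor on any array. All 6 genes of the cathepsin list were higher at their main probe sets, with a median of 0.29, where 59.1% of all measured genes were higher. Another probe set of Ctsl was at -0.28. The lysosomal collagenase Ctsk was at 0.46, Ctsb at 0.45, Cst3, a secreted cathepsin inhibitor, at 0.29 and Ctsd at 0.29.

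Genes that activate, bind or clear metalloproteinases showed no common direction. Of 14, 11 were measured, 6 higher and 5 lower, with a median of 0.03, which turned to -0.03 with 4 higher and 7 lower in centred ratios. Reck, a membrane-anchored inhibitor of metalloproteinases, went from 1092 in wild type to 1143 in Phc2 L307R, a log2 ratio of 0.07, and Bsg, which induces metalloproteinases, was at 0.06. The proprotein convertase Pcsk5 was at -0.82, with signals of 189.6 and 107.5, and Cldn1, a tight junction protein, at -0.73. Thbs2, which aids the clearance of Mmp2, was at 0.58 at its main probe set but at -0.21 at another. Lrp1, the receptor for that clearance, was at 0.45 and at -0.36 at its second probe set.

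Most listed genes of proteins that these enzymes cleave were higher at their main probe sets, as were 59.1% of all measured genes. In the 14 matrix substrates, each measured on both arrays, the log2 ratio ranged from 0.05 to 1.05 with a median of 0.43, and quantile normalization gave 0.28. Col4a1, the lowest, turned below 0 with quantile normalization, loess and centring, which left 13 higher. Fn1, fibronectin, was at 0.42 at its main probe set and at -0.33 at its second. Eln, elastin, went from a signal of 2901 in wild type to 6004 in Phc2 L307R (1.05). It was the only one past 2-fold, where 0.579% of all measured genes were at least 2-fold higher. Dcn, decorin, was at 0.88, Acan, aggrecan, at 0.75 and Col3a1, type III collagen, at 0.56. As deposited, the median of the substrates was above those of the proteases and of the inhibitors, but with quantile normalization the substrates were at 0.28 and the proteases at 0.29.

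**Figure D4:**
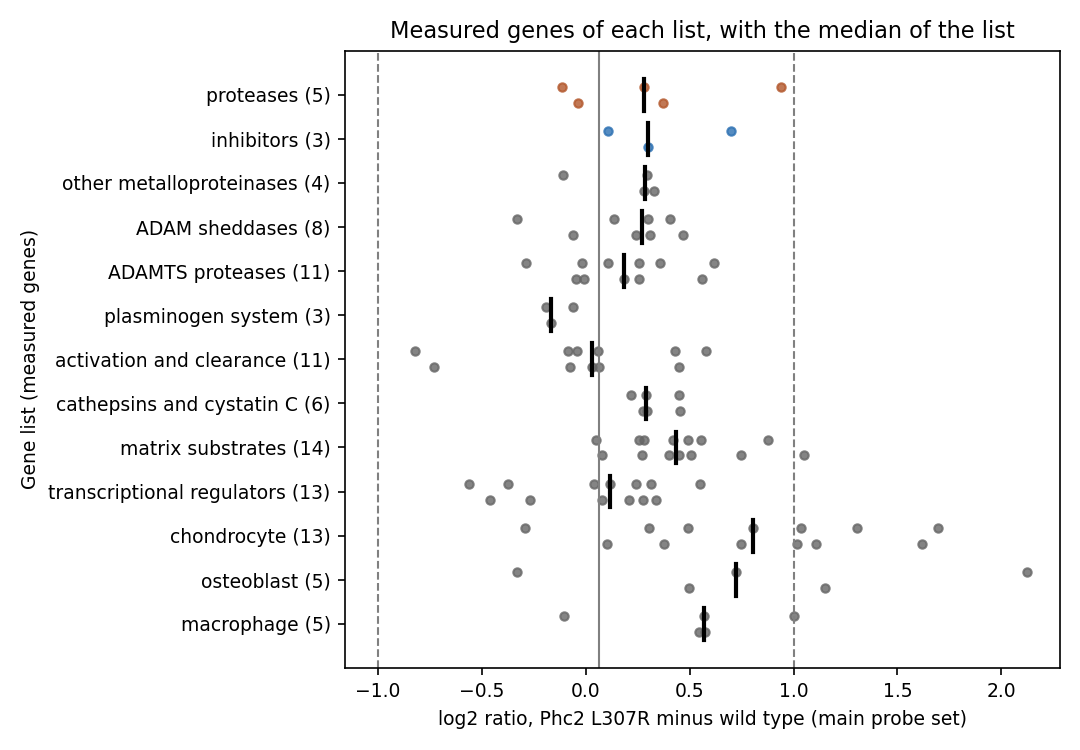
Log2 ratio of the main probe set of every measured gene in each list (points), with the median of the list as a black bar, the median of all measured genes as a grey line, 2-fold as dashed lines and the number of measured genes in brackets. The proteases (median 0.28) and inhibitors (0.30) overlap, and the matrix substrates (0.43) lie right of 0 as deposited, with Col4a1 turning below it under other scalings.

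Of 16 transcription factors known to act on metalloproteinase promoters, 13 were measured, 9 higher and 4 lower (8 and 5 in centred ratios), with a median of 0.12 and none past 1.5-fold. Etv5 was at -0.56, Ets2 at 0.55, the AP-1 subunit Fosl1 at -0.46 and Ets1 at -0.37. The probe sets of Ets2 ranged from -0.53 to 0.55 and those of Etv5 from -0.56 to 0.19, while both probe sets of Fosl1 were lower. Those of Ets1 ranged from -0.37 to -0.03. Fos, Jun, Junb and Jund, chosen after their values were seen, were at 0.21, 0.08, 0.24 and 0.32.

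Markers of cells that make Mmp13 were also mostly higher on the Phc2 L307R array, and their part in the value of Mmp13 was not tested. Of 14 chondrocyte markers, 13 were measured, with a median of 0.80. At their main probe sets 12 of these were higher, where 59.1% of all measured genes were higher. The exception was Sox9, which went from 295.9 to 241.5 (-0.29), with both of its measured probe sets lower. Col11a1 and Matn3 were higher at their main probe sets but at -0.53 and -0.34 at another. Matn1 and Cnmd had wild-type signals of 90.4 and 87.5, below the floor, so their log2 ratios are bounds. The signals of all 14 markers summed to 10199 against 14582 (wild type against Phc2 L307R). This sum and those below include markers below the floor. Col2a1, the main cartilage collagen, went from 4037 to 5685 (0.49). All 4 markers of hypertrophic chondrocytes were higher, with a median of 0.58 and a summed signal of 1108 against 1664. Col10a1, the collagen of these cells, chosen after its values were seen, went from 356.8 to 602 (0.75). Of 8 osteoblast markers 5 were measured and 4 were higher, while Omd was at -0.33. The 6 with a probe set had a summed signal of 804.3 against 1812. Most of that difference came from Ibsp, bone sialoprotein, which went from 228.8 to 997.6 (2.12). In such bulk cultures, a different number of cells of a type and a different amount of RNA per cell cannot be told apart.

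Markers of cells that make Mmp9 gave low signals. Of 12 macrophage markers 5 were measured and 4 of these were higher in Phc2 L307R. All 12, with the 7 below the floor included, had a summed signal of 857.2 against 1219. Csf1r, the receptor for their growth factor, went from 162.6 to 242.1. Of 6 osteoclast markers only Ctsk, which fibroblasts also make, was measured, and none of 4 neutrophil markers was. Mmp9 exceeded the floor on the wild-type array only, and the part of such cells in its value was not tested. Of 7 endothelial markers 3 were measured, with Pecam1 below the floor on both arrays (11.9 and 7.3), and a summed signal of 681.6 against 594.8. Of 5 epithelial markers 3 were measured, all of them keratins, with Epcam below the floor at 81.3 and 76.8 and a summed signal of 2173 against 2219.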

How the data were processed

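Biotinylated cRNA made from total RNA was hybridised, per the labels' protocols. For each array the authors deposited linear intensity values (signals) of 45101 probe sets, made with Affymetrix Expression Console and MAS5, per the submitters' processing notes, which give no versions. How arrays were scaled is not given in the sources used; without the highest and lowest 2% of values, each array had a mean of 500.003. No scanner files or detection calls were used, so no presence call stands behind a signal, and the number of arrays limits the precision.

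The 64 control probe sets were left out. Of the other 45037, 34945 carried 1 symbol, 932 several and 9160 none, and 34741 symbols were matched by gene ID to a RefSeq table of GRCm38.p6, used for names, gene order and promoters, since no build is given for the array. Signals below the floor of 94.8 were raised to it, so a fold is then a bound. The probe set brightest on average stood for a gene, and differences were read at 2-fold and 1.5-fold. No test was possible with 1 array per genotype.

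The members, the lists and the rule for named genes (all members, up to 4 measured genes of largest absolute log2 ratio per list of related genes, Reck and Bsg, and the markers Col1a1, Col2a1, Ibsp, Csf1r, Pecam1 and Epcam) were chosen with earlier results of these data known. Genes named outside this rule are marked as such in the text. Cluster neighbours of Mmp13 were named by position. Col4a1, Fn1, Ctsl, Sox9, Col11a1, Matn3 and Omd were named as exceptions to a direction, after their values were seen. Matn1 and Cnmd were named as bounds, also after their values were seen. Alternative settings were quantile normalization, loess (span 0.4, 3 iterations), median centring, a floor at the 40th or the 60th percentile, none, the floor as a pseudocount, the mean over measured probe sets, no _x_at or _s_at probe sets, and thresholds of 1.5-fold and 3-fold. The calculation was tested on simulated data for Phc2 L307R against wild type, over 11391 measured genes. Of 50 genes with a planted log2 difference of 1.5, 98% passed 2-fold, and of 50 with one of 3, 100%. The same shares held for lower genes. Planted genes lay well above the floor on both arrays. The check thus does not cover genes near the floor or differences as small as those of the members. Python 3.11.15, pandas 2.3.3, numpy 2.4.6 and statsmodels 0.14.6 were used.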

Additional observations from a re-analysis of the deposited data

How the results depend on the processing

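No member of the family was past 2-fold under any of the 9 alternatives that change the values; 2 were at a threshold of 1.5-fold, and none at 3-fold. Mmp2, Mmp11, Mmp13, Timp1, Timp2 and Timp3 kept a log2 ratio above 0 and Mmp14 one below 0 under all 9. Mmp13 ranged from 0.77 to 0.94 and Timp3 from 0.37, with the mean over probe sets, to 0.70. Mmp9 ranged from -0.95 without a floor to -0.11, over the 8 alternatives in which it was measured. With the 40th percentile as the floor, all 10 genes were measured, Mmp3 at 0.10, Mmp9 at -0.83 and Timp4 at -0.56, and at the 60th percentile 7 were. The median of the proteases ranged from 0.19 to 0.33, that of the inhibitors from 0.19 to 0.30 and their difference from -0.03 to 0.099.

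The counts over all measured genes, 66 at least 2-fold higher and 61 lower, depend on the floor. They were 127 and 90 with it at the 40th percentile, 27 and 35 at the 60th, 159 and 122 without a floor and 26 and 22 with the pseudocount. Centring on the median gave 47 higher and 75 lower. At 1.5-fold they were 479 and 371, and at 3-fold 8 and 6. No paired analysis was possible because each genotype had 1 array. Signal over background limits Mmp3, Mmp9 and Timp4, which lay at or below the floor on at least 1 array.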
